A study of Mus musculus with 22 samples.

Results

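The comparison covered the 5 wild-type (WT) samples of cultured cells among the 22 samples of the series, 2 of embryonic stem cells (ESCs) and 3 of neural progenitor cells (NPCs), and asked which genes differed between the 2 cell states. They were chosen by their labels alone (WT genotype and cell type), with no measured value. All 5 carried the strain background B6x129SvJ and had no *Phf8* deletion, the genotype that the series sets against WT. The ESCs came from outgrowths of blastocysts and were kept on gelatin or feeder cells, and the NPCs came from mouse embryos at E16.5 and grew attached to polyornithine as a monolayer. Neither the labels nor the methods say whether the replicates were separate lines, litters or cultures, so the p-values measure the spread between these samples, which may be technical. Cell type, culture and origin changed together between the groups and cannot be told apart.

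ESCs are the cultured counterpart of the pluripotent cells of the early embryo. Their state rests on a small network of transcription factors, with Oct4 (encoded by *Pou5f1*), Sox2 and Nanog at its core, and on signals of the LIF, FGF and Nodal pathways. NPCs are dividing cells of the developing brain that can give rise to neurons, astrocytes and oligodendrocytes. They are held in that state by SOX and POU factors of another set, by Notch signalling and, in culture, by FGF and EGF.

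Between 11765327 and 15539811 reads were counted on genes per sample. Levels are given as CPM, counts relative to the TMM-normalized size of each library, and as CPM divided by exon length in kilobases (RPKM) where genes are compared with each other. Reads with more than 1 place in the genome were left out of the counts and made up 43.2% to 45.2% of the records that HTSeq tallied in ESCs and 33.8% to 34.1% in NPCs, which undercounts genes that have near-identical copies, *Gapdh* at 8.56 to 27.3 CPM among them. Samples of a cell type were unlike in part. Between the ESC samples, 1002 of the 15938 genes tested (6.29%) differed by more than 2-fold. Within NPCs, 257 genes differed by that much between replicates 1 and 3, against 1160 and 1182 between either and replicate 2. ESC replicate 2 was far higher than replicate 1 in genes of fibroblasts, with 5415 against 289 CPM summed over 20 such genes. NPC replicate 2 was low in oligodendrocyte genes, with 939.6 CPM over 11 genes against 3900.2 and 3336 CPM. The genes concerned are given with the groups they belong to, and many of the results that rest on them are given with and without these samples. Counts of some lists, that of the Wnt pathway among them, are given for all samples only, though they shift when a sample is left out. Fewer cells of a type and less RNA per cell cannot be told apart in such bulk samples.

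The labelled cell types were first checked against their defining genes. *Pou5f1* (ENSMUSG00000024406, plus strand of chromosome 17 from 35506018 to 35510772 of GRCm38) was at 825 and 722 CPM in the ESC samples and at 2.47, 1.60 and 2.23 CPM in the NPC samples. *Nes* (ENSMUSG00000004891, plus strand of chromosome 3 from 87971078 to 87980451), which encodes the intermediate filament nestin of neural stem cells, was at 15.9 and 40.9 CPM in ESCs and at 532, 455 and 534 CPM in NPCs. Neither gene overlapped between the groups, which held for 83.4% of all genes tested. *Pou5f1* was lower in NPCs by 8.51 on the log2 scale (SE 0.20, adjusted p = 2.41e-05 edgeR quasi-likelihood test, Benjamini-Hochberg adjusted over all genes tested), and *Nes* was higher by 4.15 (SE 0.47, adjusted p = 0.000982, same test). Within the ESC pair *Nes* was higher in replicate 2, and without that sample its log2 fold change was 4.95. The other ESC markers, *Nanog*, *Zfp42*, *Dppa5a* and *Utf1*, had at least 264 CPM in every ESC sample and at most 0.787 CPM in any NPC sample. The other NPC markers, *Fabp7*, *Pax6*, *Sox9* and *Hes5*, had at least 14.2 CPM in every NPC sample and at most 4.04 CPM in any ESC sample.

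**Figure D1:**
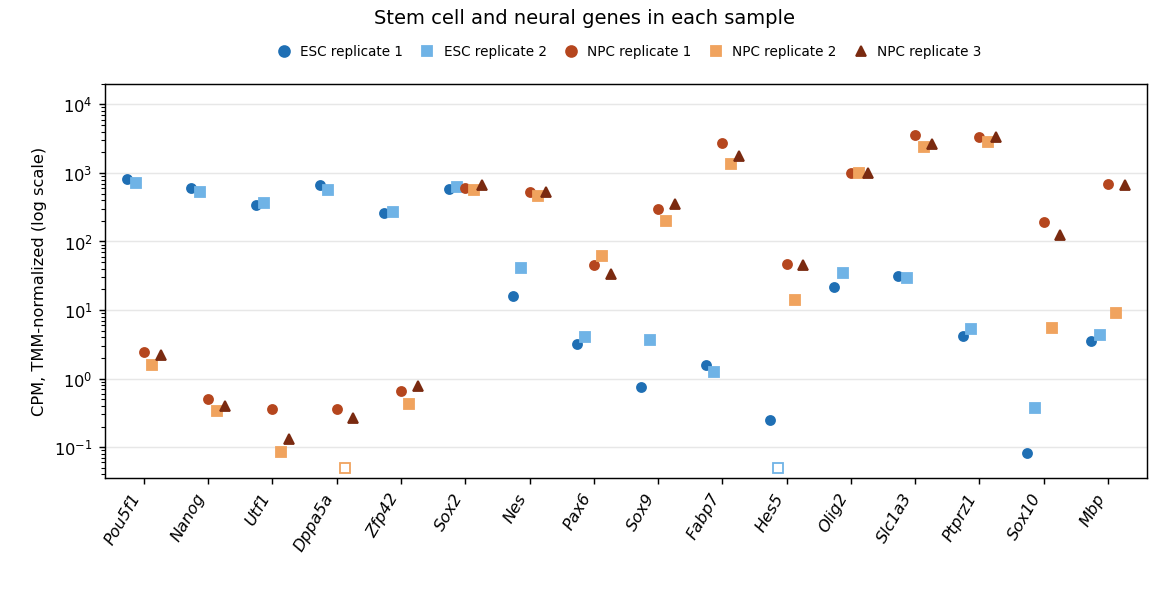
CPM of 16 stem cell and neural genes (x axis) in the 5 samples, on a log scale (y axis), with 1 point per sample, blue for ESCs and brown for NPCs, and open symbols at the lower edge for a count of 0. *Sox2* lies between 561 and 666 CPM in all 5 samples, the pluripotency genes lie high only in the ESC samples plotted, and *Sox10* and *Mbp* show NPC replicate 2 far below the other NPC samples.

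The region before the start of a gene is where transcription factors such as these can bind, and 4 such sequences are shown because their genes stand for both sides of the comparison, *Nanog* and *Zfp42* for ESCs and *Hes5* and *Olig2* for NPCs. Each runs 5′ to 3′ on the strand of the gene, over the 250 bases before the start that RefSeq gives (build GRCm38.p6). Capitals mark 3 motifs searched on both strands, ATGCAAA (a part of the octamer that POU factors bind), CATTGT (SOX factors) and TGGGAA (Rbpj, the DNA-binding factor of the Notch pathway). Of 27025 promoter windows of this length, 4.06% held the first, 10.99% the second and 21.5% the third, and 0.662% held both POU and SOX letters.
Nanog, chr6:122707239-122707488, plus strand: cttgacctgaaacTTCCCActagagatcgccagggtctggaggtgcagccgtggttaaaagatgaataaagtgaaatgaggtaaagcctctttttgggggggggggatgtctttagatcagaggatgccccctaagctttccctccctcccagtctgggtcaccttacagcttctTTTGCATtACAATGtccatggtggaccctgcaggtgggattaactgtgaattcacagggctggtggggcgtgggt
Zfp42, chr8:43307010-43307259, minus strand: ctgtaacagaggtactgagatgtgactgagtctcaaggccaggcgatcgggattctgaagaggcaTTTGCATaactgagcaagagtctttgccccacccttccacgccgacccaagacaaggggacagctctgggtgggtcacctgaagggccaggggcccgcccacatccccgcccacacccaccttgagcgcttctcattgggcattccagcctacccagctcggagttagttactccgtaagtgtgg
Hes5, chr4:154960673-154960922, plus strand: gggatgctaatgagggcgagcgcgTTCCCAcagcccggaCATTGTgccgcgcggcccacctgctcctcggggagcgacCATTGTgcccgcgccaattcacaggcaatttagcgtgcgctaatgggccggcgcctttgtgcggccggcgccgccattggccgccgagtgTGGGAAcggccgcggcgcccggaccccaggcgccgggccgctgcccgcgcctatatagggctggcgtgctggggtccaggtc
Olig2, chr16:91225300-91225549, plus strand: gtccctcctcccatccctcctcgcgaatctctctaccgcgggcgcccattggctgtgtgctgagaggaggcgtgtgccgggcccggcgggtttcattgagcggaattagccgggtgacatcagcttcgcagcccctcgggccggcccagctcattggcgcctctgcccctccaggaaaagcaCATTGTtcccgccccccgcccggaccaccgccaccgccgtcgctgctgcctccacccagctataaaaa
In *Nanog* the POU and SOX letters stood side by side, at bases 75 to 69 and 67 to 62 before the start, and the Rbpj letters lay further out. *Zfp42* held the POU letters once, at bases 185 to 179. The *Hes5* window held the SOX letters at 2 places and the Rbpj letters at 2 places, and *Olig2* held the SOX letters once, at bases 68 to 63. Such matches describe the letters and were not tested as binding sites. Of 596 listed genes found in the files, 436 had a promoter window in the table used.

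Across the transcriptome, 4171 of the 15938 genes tested (26.2%) were higher in NPCs and 4150 (26.0%) were lower, 52.2% together, at an adjusted p under 0.05 and a log2 fold change beyond 1. These shares are the background for reading each gene list. The median log2 fold change of all genes tested was -0.02. The fitted change exceeded 8-fold for 1548 of the genes called higher and 1588 of those called lower. A count of 0 in both ESC samples was found for 117 of the genes called higher, and a count of 0 in all 3 NPC samples for 368 of those called lower.

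**Figure D2:**
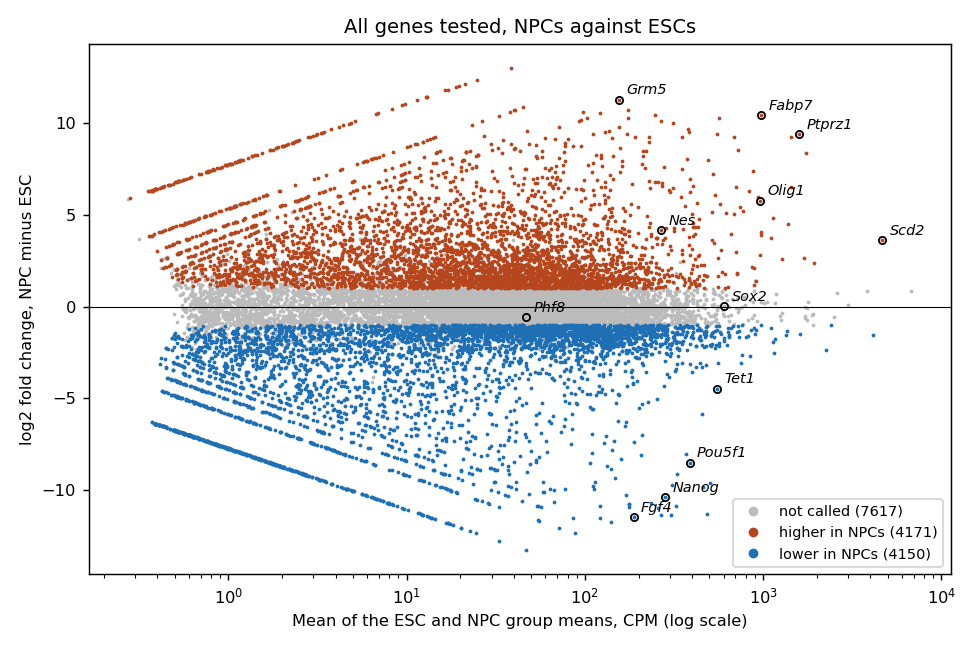
Log2 fold change of NPCs against ESCs (y axis) for the 15938 genes tested, against the mean of the group means in CPM on a log scale (x axis), with called genes in brown (4171 higher) and blue (4150 lower) and the others in grey. Diagonal rows at low levels are genes with 0 or a few counts in a group, and named genes are circled.

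The 10 genes with the smallest adjusted p-values among those higher in NPCs were *Grm5*, *Ramp1*, *Hepacam*, *Kcnd3*, *Lrrc4b*, *Gatm*, *Tspan12*, *Nrcam*, *Garem2* and *Dbx2*. *Grm5*, a metabotropic glutamate receptor, had 0.167 and 0.0734 CPM in ESCs, 3 counts in all, and 302, 329 and 306 CPM in NPCs, a ratio of 2667-fold (95% exact Poisson interval of the count, 913 to 12935). *Hepacam*, a cell adhesion molecule of glia, had 0.417 and 0.293 CPM in ESCs and 510.3, 505 and 464 CPM in NPCs. *Gatm*, which makes the precursor of creatine, was measured at 2.75 and 3.01 CPM in ESCs and 592, 540.2 and 536 CPM in NPCs. By fitted fold change, the 10 highest genes with at least 5 RPKM in NPCs were *Nlgn1*, *Scrg1*, *Grm3*, *Prkcq*, *Lmo3*, *Nr2e1*, *Pou3f4*, *E130114P18Rik*, *Gjc3* and *Grm5*. Apart from *Grm5*, these had no count in ESCs, so their folds are lower bounds and their order is not established. For *Nlgn1*, a neuroligin of synapses, the NPC samples had 74.5, 81.4 and 74.9 CPM, at least 657-fold more than the limit that a count of 0 allows over the ESC group (3 counts).

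The 10 genes with the smallest adjusted p-values among those lower in NPCs were *Fgf4*, *Igf2bp1*, *Lin28a*, *Zscan10*, *Nanog*, *Ooep*, *Zfp981*, *Trim71*, *Esrrb* and *Platr14*. *Lin28a* and *Trim71*, which act on let-7 microRNA and its targets, were at 455 and 479.6 and at 306 and 287 CPM in the ESC samples and did not pass 0.508 CPM in any NPC sample. *Igf2bp1*, an RNA-binding protein of embryonic cells, was at 525 and 501 CPM in ESCs and at 0.363, 0.168 and 0.197 CPM in NPCs. By fitted fold change, the 10 lowest genes with at least 5 RPKM in ESCs were *Gpa33*, *Rbmxl2*, *Zfp984*, *Nr0b1*, *Dusp27*, *Elf3*, *Zfp990*, *Pramef12*, *AU015836* and *Gtsf1l*. *Nr0b1* and *Zfp990* had 1 count in all in NPCs and the others none, so their order is not established either. *Gpa33*, an epithelial surface antigen, was at 89.4 and 96.8 CPM in ESCs, at least 1269.5-fold above the limit for the NPC group. *Elf3*, an epithelial transcription factor, was at 42.5 and 38.5 CPM in ESCs, at least 552-fold above that limit. *Zfp981*, *Zfp984*, *Zfp990* and *Pramef12* belong to families of near-identical copies, so their counts are uncertain.

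Gene lists were then described by the number of members called. In the core pluripotency list, 15 of 16 members tested were lower in NPCs and none was higher, against 26.0% and 26.2% of all genes, and the median log2 fold change was -10.55 (-10.32 with *Foxd3*, which had no count in NPCs, at its bound). The exception was *Sox2*, which was at 587 and 613 CPM in ESCs and 607, 561 and 666 CPM in NPCs. Its log2 fold change was 0.027 (SE 0.11, adjusted p = 0.837, edgeR quasi-likelihood test) and took either sign with the scaling used, and it was the only member whose groups overlapped. *Tdgf1*, the Nodal co-receptor Cripto, was at 1074 and 858 CPM in ESCs and 0.363, 0.505 and 0.262 CPM in NPCs, lower by 11.32 on the log2 scale (SE 0.25). *L1td1*, an RNA-binding protein of stem cells, was at 888 and 946 CPM in ESCs and 1.31, 0.674 and 0.984 CPM in NPCs.

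The naive pluripotency list, genes of the state that LIF maintains, had 17 of 17 members lower, with a median log2 fold change of -8.69 (-8.11 with the member without a count in NPCs at its bound). *Esrrb*, an orphan nuclear receptor, was at 697 and 618 CPM in ESCs and 0.943, 1.26 and 1.31 CPM in NPCs. *Klf4*, a target of LIF, was at 524 and 360.3 CPM in ESCs and 8.05, 17.9 and 10.6 CPM in NPCs, lower by 5.19 on the log2 scale (SE 0.40). *Zfp57*, which protects imprinted methylation, changed least, from 525 and 590.1 CPM in ESCs to 41.6, 24.6 and 49.5 CPM in NPCs. The formative list, genes of the state that follows, was mixed. Of its 11 members tested, 6 were lower and 2 higher. *Fgf5*, which defines that state, had 0.834 and 0.734 CPM in the ESC samples. The 3 members that did not pass the test, *Otx2* and *Zic2* among them, are also used by neural cells, while *Sall2* and *Sox4* were higher in NPCs, *Sox4* at 9.59 and 21.4 CPM in ESCs and 304, 282 and 336 CPM in NPCs.

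The 2-cell-like list, genes of a state resembling the earliest cleavage embryo, had 7 members that passed the expression filter of 13 in the files. All 7 were lower in NPCs, but 6 had no count there. Those 6 passed the filter only through the ESC samples and could not be called higher. With no filter on low counts, 11 of 13 were lower and 0 higher. *Eif1a*, a translation factor of all cells, was 1 of the 7 members tested, at 399 and 369 CPM in ESCs and 54.6, 68.6 and 53.9 CPM in NPCs. *Zscan4d* was at 7.01 and 7.19 CPM in ESCs and had no count in NPCs, at least 96.8-fold. *Zscan4* genes have near-identical copies, so these counts are uncertain. Of the germline list, 13 of 13 members tested were lower in NPCs, and 4 of these had no count there, so they could not be called higher either. With no filter on low counts, 14 of 15 were lower. *Ddx4*, the germ cell helicase Vasa, was at 68.4 and 44.5 CPM in ESCs and 0.725, 0.253 and 0.328 CPM in NPCs, and *Dazl* was at 34.8 and 21.4 CPM and 0, 0.0842 and 0.0656 CPM. *Mael*, which acts against transposons, was at 33.03 and 24.8 CPM in ESCs with no count in NPCs, at least 394-fold. In ESC replicate 1 each germline member tested was higher than in replicate 2, and the list summed to 309 and 206 CPM. Many genes of other germ layers were too low to test. Of the mesoderm and endoderm list, 5 of 13 members in the files passed the expression filter, and of the trophoblast list 4 of 8. In each list 3 of these were lower in NPCs and 0 higher. In each, 1 member tested had no count in 1 of the cell types, which fixed its side in advance. *Tead4*, a trophoblast factor, and *Eomes*, of trophoblast and early mesoderm, were among those lower in NPCs, at 39.2 and 39.03 CPM and 10.01 and 11.7 CPM in the ESC samples.

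In NPCs, 24 of 25 members of the neural stem cell list were higher, against 26.2% of all genes, with a median log2 fold change of 5.17. Among them *Nr2e1* and *Pou3f4* had no count in ESCs and could not be called lower. The largest level was that of *Fabp7*, a fatty acid binding protein of radial glia, at 1554 ± 562 RPKM (SD, n = 3) in NPCs against 1.133 ± 0.191 RPKM (SD, n = 2) in ESCs. Its NPC samples had 2710.4, 1332 and 1785 CPM, with replicate 2 lowest. *Olig1* and *Olig2*, basic helix-loop-helix factors that drive the oligodendrocyte lineage and mark ventral progenitors, were at 876 ± 56.3 and 397 ± 3.57 RPKM in NPCs and at 15.95 ± 0.957 and 11.04 ± 3.45 RPKM in ESCs. *Olig2* was nearly equal in the NPC samples, 1013, 995 and 1003 CPM. *Pax6*, a factor of dorsal progenitors, was at 3.99 ± 1.17 RPKM in NPCs and 0.308 ± 0.0524 RPKM in ESCs. Among POU genes, *Pou3f2* had 3 counts in ESCs and 92.96, 90.9 and 100.8 CPM in NPCs, a ratio of 810.5-fold (95% exact Poisson interval of the count, 277 to 3930.0), and *Pou3f4* had none in ESCs and 25.4, 29.1 and 23.5 CPM in NPCs. The nuclear factor I genes *Nfia*, *Nfib* and *Nfix*, which act in the switch to glia, were at 21.3 ± 2.71, 31.7 ± 4.802 and 44.8 ± 3.78 RPKM in NPCs (SD, n = 3), against 0.175 ± 0.162, 2.38 ± 0.0453 and 2.60 ± 2.96 RPKM in ESCs (SD, n = 2). *Prom1* was the member not called, at 7.26 and 5.43 CPM in ESCs and 17.04, 1.85 and 14.6 CPM in NPCs, with NPC replicate 2 below both ESC samples.

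Of the radial glia and astrocyte list, 17 of 21 members were higher and none lower, with a median log2 fold change of 6.53. *Slc1a3*, the glutamate transporter Glast, was at 31.8 and 29.6 CPM in ESCs and 3526, 2389 and 2614 CPM in NPCs. *Ptprz1*, a receptor phosphatase of glial progenitors, was at 4.17 and 5.21 CPM in ESCs and 3355, 2826 and 3355 CPM in NPCs. The matrix proteoglycans *Ncan* and *Bcan* stood at 482 ± 138 and 173 ± 24.4 RPKM (SD, n = 3) in NPCs and at 1.45 ± 0.330 and 0.280 ± 0.0389 RPKM (SD, n = 2) in ESCs. Markers of mature astrocytes differed between the NPC samples. *Aqp4*, the water channel of astrocyte endfeet, was at 408, 61.8 and 307 CPM, *Gfap* at 93.3, 17.7 and 166 CPM and *Aldh1l1* at 874, 57.3 and 823 CPM, and replicate 2 was the lowest for each. Over the whole list, replicate 2 was the lowest NPC sample for 11 of the 21 members, so the list as a class did not show that order. *Aldh1l1* was not called without ESC replicate 1 (log2 fold change 6.47, adjusted p = 0.0591) or ESC replicate 2 (log2 fold change 6.21, adjusted p = 0.0607). *Tnc*, a matrix protein, was 1 of the 4 members not called, and the ESC samples themselves lay far apart, at 23.4 and 339 CPM.

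Oligodendrocyte genes showed how unlike the NPC samples were. Of 11 members tested, 9 were higher in NPCs. *Sox10*, the factor that directs the lineage, was at 192, 5.39 and 124 CPM in NPC replicates 1, 2 and 3, against 0.0834 and 0.367 CPM in ESCs. The myelin genes followed the same order, with *Mbp* at 698, 8.93 and 657 CPM and *Mag* at 60.2, 1.26 and 59.8 CPM. *Gpr17*, a receptor of committed precursors, was at 568, 59.98 and 306 CPM. Replicate 2 was the lowest NPC sample for 9 of the 11 members in the files. *Sox8* and *Cspg4* did not show that gap, at 338, 325 and 308 CPM and 177, 309 and 329.8 CPM. *Mog*, a marker of the mature myelinating cell, was at 0.943, 0 and 0.656 CPM in NPCs and 1.25 and 0.807 CPM in ESCs. Without NPC replicate 2, 9 members were called higher, and without ESC replicate 1 the count was 5, and it was 6 without ESC replicate 2, NPC replicate 1 or NPC replicate 3. Without any of these 4 samples in turn, *Mbp* and *Mag* were not called, with log2 fold changes of 6.43 to 6.97 and 7.22 to 7.80 and adjusted p of 0.0684 to 0.124 and 0.0559 to 0.109 (edgeR quasi-likelihood test). *Sox10* was not called without ESC replicate 1 (log2 fold change 8.15, adjusted p = 0.0821) or ESC replicate 2 (log2 fold change 10.13, adjusted p = 0.0747).

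Neuronal genes went in both directions. Of 15 members tested, 7 were higher and 5 lower in NPCs, 46.7% and 33.3%, against 26.2% and 26.0% of all genes. Without NPC replicate 2, 10 were higher, and without ESC replicate 1, as without ESC replicate 2, 5 were higher and 4 lower. *Map2*, a microtubule protein of dendrites, was at 10.5 and 20.8 CPM in ESCs and 955, 1186 and 1045 CPM in NPCs. *Dcx*, a marker of young neurons, had 2 counts in ESCs and 27.2, 11.96 and 22.6 CPM in NPCs. Lower in NPCs were *Stmn2*, at 380.4 and 368 CPM in ESCs and 2.03, 0.590 and 3.93 CPM in NPCs, *Tubb3*, at 38.03 and 48.4 CPM and 9.06, 5.81 and 7.74 CPM, and *Neurod1*, at 27.02 and 29.8 CPM with 2 counts in NPCs. The glutamate transporters of synaptic vesicles were near 0 in the NPC samples, *Slc17a6* with no count and its relative *Slc17a7* at 0.508, 0.253 and 0.393 CPM. Other genes of mature neurons in the list, *Rbfox3* and *Snap25* among them, are not reported here, so these values do not stand for mature neurons in general.

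Genes of position along the brain separated NPC replicate 2 again. The forebrain factor *Six3* was at 41.4, 1.35 and 64.3 CPM in NPC replicates 1, 2 and 3, and *Lhx2* at 51.8, 11.04 and 50.3 CPM. *Hoxa5*, which belongs to the hindbrain and spinal cord, was at 0.218, 13.4 and 0.131 CPM, *Hoxa3* at 0.145, 9.18 and 0.197 CPM and the midbrain and hindbrain gene *En1* at 0.290, 5.39 and 0.787 CPM. Replicate 2 was thus lowest for the forebrain genes and highest for the posterior genes named. *Otx1*, a member of the forebrain list, did not follow that order, at 21.5, 38.9 and 18.8 CPM. Of the forebrain list, 6 of 13 members tested were higher in NPCs than in ESCs in all samples, 10 without NPC replicate 2, and 2 and 3 without ESC replicate 1 or 2. Without NPC replicate 1 or 3 the counts were 2 and 3 of 9 tested. *Six3* was not called without ESC replicate 1 (log2 fold change 7.84, adjusted p = 0.103), ESC replicate 2 (log2 fold change 7.63, adjusted p = 0.106) or NPC replicate 1 (log2 fold change 7.64, adjusted p = 0.0532). Of the posterior list, 7 of 23 members passed the filter and 0 were higher in NPCs, while 2 were lower. Without ESC replicate 1, 9 of 17 tested were lower, and without ESC replicate 2, 1 was higher. Each of the 23 members was higher in ESC replicate 2 than in replicate 1, *Hoxc8* at 0.5004 and 6.75 CPM and *Hoxc6* at 0.250 and 4.40 CPM.

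The plot of gene lists sets most of these groups against the background.

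**Figure D3:**
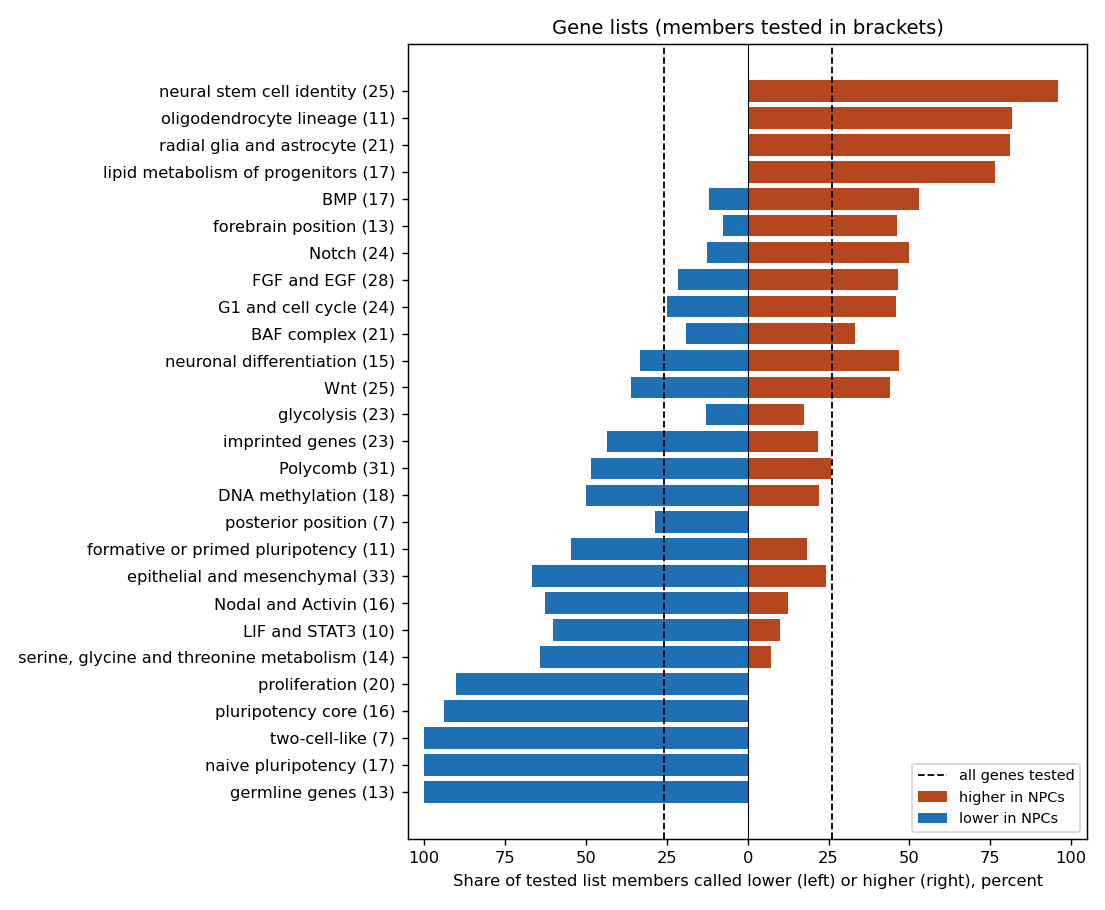
Share of the tested members of most gene lists called higher in NPCs (brown, to the right) or lower (blue, to the left), in percent. The number tested is in brackets, and dashed lines mark the shares among all genes tested, 26.2% and 26.0%. Not plotted are the lists of fibroblast, primitive endoderm, microglia, endothelium and blood, trophoblast, mesoderm and endoderm, KDM7 and sex-linked genes. All tested members of the naive, 2-cell-like and germline lists lie to the left, and 24 of 25 members of the neural stem cell list lie to the right. For 6 of the 7 2-cell-like, 4 of the 13 germline and 1 of the 17 naive members, no count in NPCs fixed the side in advance. For 2 of the 25 neural stem cell members, no count in ESCs did so. Some other lists also hold such members.

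Signalling pathways were described by the roles of their members. LIF, acting through its receptor and Stat3, keeps mouse ESCs naive. Its receptor chains were not called, *Il6st* (gp130) with a log2 fold change of -0.59 (SE 0.11). *Lif* itself was lower in NPCs, at 6.17 and 12.7 CPM in ESCs and 1.60, 0.505 and 1.31 CPM in NPCs. *Stat3* was higher in NPCs, at 156 and 176 CPM in ESCs and 349, 322 and 369.6 CPM in NPCs. Its targets *Socs3*, *Pim1* and *Pim3* were lower, *Socs3* at 153 and 169 CPM in ESCs and 6.16, 4.63 and 7.47 CPM in NPCs, lower by 4.72 on the log2 scale (SE 0.21, adjusted p = 7.60e-05, edgeR quasi-likelihood test). *Stat3* was not called without ESC replicate 1 (log2 fold change 0.97, adjusted p = 0.00591). In all, 6 of 10 members were lower, *Klf4* and *Tfcp2l1* of the naive list included, and 1 was higher.

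Nodal signalling, which primes cells for germ layers, differed at its ligands, co-factors and inhibitors, where 6 of 7 members tested were lower in NPCs. *Nodal* was at 77.8 and 76.9 CPM in ESCs and had 3 counts in NPCs, a ratio of 1055-fold (95% exact Poisson interval of the count, 361 to 5115). Its inhibitors *Lefty1* and *Lefty2* were at 68.3 and 79.2 CPM and 62.1 and 97.9 CPM in ESCs and at most 0.393 CPM in NPCs. *Inhba*, a subunit of activin, differed between the ESC samples, at 4.67 and 55.6 CPM. Receptors and transducers were mixed, with 2 higher and 4 lower of 9, and 1 higher without ESC replicate 1. *Smad4* was at 115 and 120.0 CPM in ESCs and 111, 111 and 113 CPM in NPCs, while *Foxh1*, the nuclear partner of the pathway, was lower by 7.34 on the log2 scale (SE 0.34).

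For FGF and EGF, the ligands divided by gene. *Fgf4*, the autocrine factor of ESCs, was at 401 and 351 CPM in ESCs and 0.0725, 0.168 and 0.131 CPM in NPCs, lower by 11.48 on the log2 scale (SE 0.20). Of the ligands 4 were lower and 3 higher of 10 tested, the latter with *Tgfa*, a ligand of the EGF receptor, and *Fgf1*, at 5.67 and 4.11 CPM in ESCs and 101.1, 153 and 148 CPM in NPCs. Of the 8 receptors, 5 were higher. *Egfr* was at 4.92 and 22.6 CPM in ESCs and 397, 560.1 and 333 CPM in NPCs, *Fgfr3* at 4.67 and 4.18 CPM and 459.7, 484 and 537 CPM, and *Erbb4* at 0 and 0.293 CPM and 50.03, 81.3 and 49.97 CPM. *Erbb3* went the other way, at 35.6 and 38.1 CPM in ESCs and 2.18, 0.590 and 1.57 CPM in NPCs. Of the targets and inhibitors, 5 of 10 were higher (3 without ESC replicate 1, when 1 was lower, and 3 without NPC replicate 2), *Etv1* and *Spry1* most, with log2 fold changes of 2.78 (SE 0.24) and 2.39 (SE 0.20).

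In the Notch pathway, in which ligands on 1 cell activate receptors on the next and release a fragment that acts with Rbpj on *Hes* and *Hey* genes, 12 of 24 members tested were higher in NPCs and 3 lower. Ligands of the Delta family rose from ESCs to NPCs, *Dll1* from 32.1 and 17.2 CPM to 101.2, 90.3 and 86.6 CPM and *Dll3* from 2.84 and 3.45 CPM to 78.2, 27.04 and 46.4 CPM, while *Jag2* was lower. *Notch1* was at 45.5 and 47.8 CPM in ESCs and 276, 335 and 338 CPM in NPCs, and *Notch3* at 72.1 and 83.3 CPM and 239, 179.9 and 208 CPM. *Notch4*, the receptor of vessels, was lower, at 23.8 and 16.8 CPM and 1.23, 1.26 and 2.36 CPM. *Lfng*, a glycosyltransferase that modifies the receptors, was higher by 5.75 on the log2 scale (SE 0.16, adjusted p = 3.61e-05, edgeR quasi-likelihood test). *Rbpj* itself was lower, at 227 and 191 CPM in ESCs and 40.2, 35.05 and 42.5 CPM in NPCs. Of the targets, *Hes5* had 3 counts in ESCs and 46.3, 14.2 and 44.98 CPM in NPCs, and *Hey1* and *Nrarp* were at 4.34 and 4.62 CPM and 4.92 and 5.28 CPM in ESCs and at 89.6, 37.99 and 86.8 CPM and 131, 78.1 and 135 CPM in NPCs. *Hes1* did not pass the test, at 30.1 and 56.8 CPM in ESCs and 37.6, 72.96 and 58.5 CPM in NPCs. With any single sample left out, 12 or 13 members were called higher and 3 lower.

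The BMP pathway had 9 of 17 members higher in NPCs and 2 lower, 52.9% and 11.8%, against 26.2% and 26.0% of all genes. Among those higher were *Bmp7*, the receptors *Bmpr1a*, *Bmpr1b* and *Bmpr2*, the transducers *Smad1* and *Smad5*, and the targets *Id2* and *Id3*. *Id3* was not called without NPC replicate 1 (log2 fold change 2.60, adjusted p = 0.0522), NPC replicate 2 (log2 fold change 2.45, adjusted p = 0.0795) or NPC replicate 3 (log2 fold change 2.51, adjusted p = 0.0551). *Bmp7*, a ligand, was at 4.42 and 3.74 CPM in ESCs and 64.2, 53.6 and 71.7 CPM in NPCs. *Bmp4* was at 30.4, 0.168 and 16.1 CPM in NPCs, nearly absent from replicate 2, and did not pass the test. In the Wnt pathway, 11 of 25 members were higher and 9 lower, 44.0% and 36.0%, against 26.2% and 26.0% of all genes. The receptors differed by gene, *Fzd5* and *Fzd7* being lower and *Fzd1*, *Fzd2* and *Fzd3* higher, with *Fzd5* at 245 and 226 CPM in ESCs and 17.8, 16.4 and 16.3 CPM in NPCs and *Fzd1* at 3.25 and 8.51 CPM and 81.4, 95.7 and 84.7 CPM. So did the TCF factors that act on Wnt targets, *Tcf7*, *Tcf7l1* and *Lef1* being lower and *Tcf7l2* higher. *Wnt7a* was at 0.5004 and 0 CPM in ESCs and 55.6, 34.6 and 37.6 CPM in NPCs. *Lgr5*, a receptor of R-spondins, was at 7.54, 51.5 and 7.28 CPM in NPC replicates 1, 2 and 3 and at 0.0834 and 0.514 CPM in ESCs, and was not called without ESC replicate 1 (log2 fold change 5.39, adjusted p = 0.0806) or ESC replicate 2 (log2 fold change 7.84, adjusted p = 0.0578).

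Chromatin genes were compared by RPKM, since related genes can replace each other in a complex. Of the Polycomb genes, 15 of 31 were lower in NPCs and 8 higher, 48.4% and 25.8%, against 26.0% and 26.2% of all genes. PRC2, which methylates lysine 27 of histone H3, was lower in most members, 9 of 12. Its core genes *Ezh2*, *Eed* and *Suz12* were at 49.6 ± 3.79, 75.8 ± 2.02 and 89.4 ± 9.94 RPKM in ESCs (SD, n = 2) and at 20.3 ± 1.79, 12.8 ± 0.829 and 26.7 ± 0.828 RPKM in NPCs (SD, n = 3). The accessory genes *Jarid2*, *Mtf2* and *Epop* had the largest changes of the list's PRC2 members, *Jarid2* from 72.2 ± 9.88 RPKM to 8.19 ± 0.864 RPKM, *Mtf2* from 104 ± 18.9 RPKM to 9.71 ± 1.47 RPKM and *Epop* from 73.1 ± 7.18 RPKM to 2.70 ± 0.381 RPKM. The PRC2 count includes *Ezh1*, from 6.45 ± 0.554 RPKM to 2.39 ± 0.504 RPKM. PRC1, which ubiquitinates histone H2A, had 7 members higher and 6 lower of 19, and some genes of the same family went in opposite directions. *Cbx7*, a CBX gene, went from 41.8 ± 2.77 RPKM in ESCs to 1.81 ± 0.282 RPKM in NPCs. Of the Polyhomeotic genes, *Phc1* went from 143 ± 14.6 RPKM to 14.5 ± 1.29 RPKM and *Phc2* from 3.82 ± 1.52 RPKM to 21.5 ± 0.831 RPKM. *Pcgf2* and *Pcgf6* were lower and *Bmi1* (Pcgf4) was higher, at 3.43 ± 0.843 RPKM in ESCs and 29.1 ± 4.26 RPKM in NPCs. *Rybp* was lower and its relative *Yaf2* higher, at 6.36 ± 1.81 RPKM and 47.1 ± 2.62 RPKM.

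Some genes of the BAF chromatin remodeller also differed from a relative in direction or size of change. The ATPase gene *Smarca4* was at 338 and 350.0 CPM in ESCs and 318, 336 and 367 CPM in NPCs, while its relative *Smarca2* was at 3.25 and 9.98 CPM and 123, 116 and 130.4 CPM. *Smarcc1* was lower in NPCs by 1.24 on the log2 scale (SE 0.11) and *Smarcc2* higher by 2.72 (SE 0.19), so that *Smarcc2* passed *Smarcc1* in RPKM, 49.7 ± 0.885 against 26.7 ± 2.53 in NPCs. Among SMARCD genes, *Smarcd3* was higher, *Smarcd2* lower and *Smarcd1*, with a log2 fold change of -0.89, did not pass the fold threshold. *Actl6a* was lower, and *Actl6b*, which replaces it in neurons, did not pass 0.250 CPM in any of the 5 samples. *Dpf3*, a subunit of neural and muscle BAF, was at 0.751 and 0.147 CPM in ESCs and 46.2, 57.2 and 42.4 CPM in NPCs. In all, 7 of 21 members tested were higher and 4 lower.

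**Figure D4:**
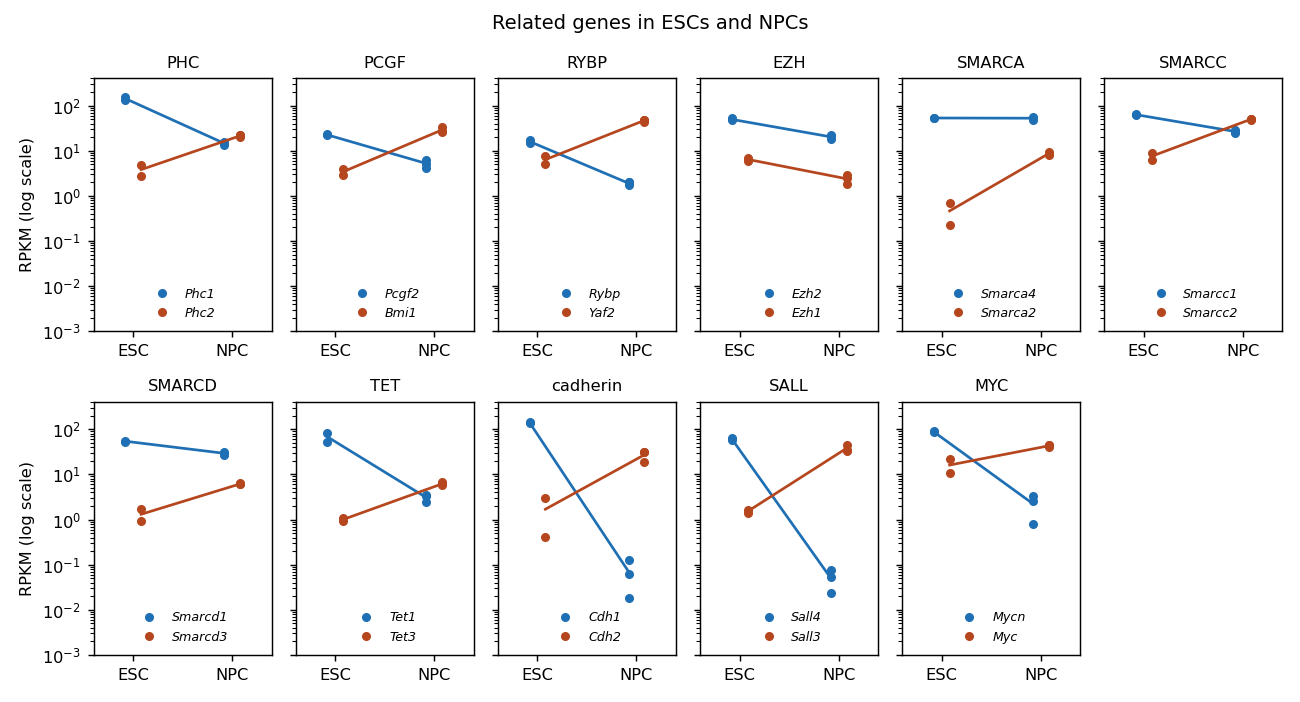
RPKM in ESCs and NPCs on a log scale (y axis) for 11 pairs of related genes, with 1 point per sample, lines between group means, and a panel per family. The PHC, PCGF, RYBP and EZH pairs were picked after their values were seen. The others were taken from a longer list of pairs, and the rest of that list, *Dnmt3a* and *Dnmt3b*, which both fell, included, is not plotted. The panels thus do not show how often related genes go in opposite directions. *Phc1*, *Tet1*, *Cdh1*, *Sall4* and *Mycn* lie below their partners in NPCs and above them in ESCs, while *Smarca4* is level and *Ezh1* and *Ezh2* fall together.

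Among DNA methylation genes, 9 of 18 were lower in NPCs and 4 higher. The de novo methyltransferase *Dnmt3b* and its co-factor *Dnmt3l* were at 295 and 310.2 CPM and 522 and 552 CPM in ESCs and at 3.77, 5.81 and 2.75 CPM and 0.0725, 0.0842 and 0.393 CPM in NPCs. *Dnmt3a*, with a log2 fold change of -0.98 (SE 0.18), and the maintenance enzyme *Dnmt1*, with -0.73 (SE 0.14), passed the test but not the fold threshold. The TET dioxygenases, which oxidise methylcytosine, divided as the families above. *Tet1* was at 1296 and 806 CPM in ESCs and 53.1, 37.8 and 50.7 CPM in NPCs, *Tet2* at 283 and 209 CPM and 44.5, 38.7 and 42.9 CPM, and *Tet3* at 15.5 and 18.05 CPM and 112, 97.6 and 102 CPM. Of the KDM7 demethylases, *Phf8* was at 58.4 and 53.7 CPM in ESCs and 36.5, 37.2 and 38.7 CPM in NPCs, a log2 fold change of -0.58 (SE 0.096, adjusted p = 0.00335, edgeR quasi-likelihood test), under the fold threshold. Its relative *Phf2* was higher in NPCs, at 15.9 and 21.1 CPM in ESCs and 129, 121 and 125 CPM in NPCs, and *Kdm7a* did not pass the test.

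Cells of an epithelium are held together by E-cadherin, claudins and desmosomes, while neural progenitors carry N-cadherin. Of the epithelial genes (junctions, keratins and splicing factors), 18 of 19 were lower in NPCs. Of the 19, 3 had no count in NPCs, passed the filter only through the ESC samples and could not be called higher. E-cadherin (*Cdh1*) was at 668 and 624 CPM in ESCs and 0.290, 0.0842 and 0.590 CPM in NPCs, *Epcam* at 343 and 293 CPM and 1.38, 0.674 and 0.918 CPM, and the splicing factor *Esrp1* at 75.2 and 61.8 CPM and 0.145, 0.168 and 0.197 CPM. N-cadherin (*Cdh2*) was at 3.25 and 24.1 CPM in ESCs and 256, 150.5 and 253 CPM in NPCs, higher by 3.998 on the log2 scale (SE 0.89), or by 3.19 without ESC replicate 1 and 6.03 without ESC replicate 2. The repressors *Zeb1* and *Zeb2* were higher in NPCs and *Snai1* and *Snai2* lower, with *Zeb1* at 21.9 and 33.97 CPM in ESCs and 497, 658 and 479 CPM in NPCs. *Ncam1* and *Nrcam* were higher, *Nrcam* at 3.17 and 3.52 CPM and 260.4, 284 and 276 CPM. Vimentin (*Vim*) was at 164 and 1073 CPM in ESCs and 3125, 2698 and 3972 CPM in NPCs, and *Snai2* at 1.17 and 20.2 CPM in ESCs, both higher in ESC replicate 2. *Vim* was not called without NPC replicate 1 (log2 fold change 2.44, adjusted p = 0.0942), NPC replicate 2 (log2 fold change 2.52, adjusted p = 0.111) or NPC replicate 3 (log2 fold change 2.23, adjusted p = 0.104), and *Snai2* was not called without NPC replicate 2 (log2 fold change -6.20, adjusted p = 0.0660).

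ESCs divide with a short G1 phase. Of the proliferation list, 18 of 20 members were lower in NPCs and none higher, with a median log2 fold change of -1.74. The replication helicase genes *Mcm2* to *Mcm7* were all among them, *Mcm3* at 576 and 541 CPM in ESCs and 94.2, 134 and 108 CPM in NPCs. *Mki67* did not pass the test, at 363 and 284 CPM in ESCs and 281, 444 and 296 CPM in NPCs, and NPC replicate 2 was the highest of the 5 samples. NPC replicate 2 was the lowest NPC sample for 0 of the 20 members. Cyclin E1 (*Ccne1*) was lower, at 358 and 308 CPM in ESCs and 27.3, 29.8 and 27.02 CPM in NPCs, while cyclins D1 and D2 were higher, *Ccnd1* at 246 and 385 CPM and 1433, 1180.0 and 1607 CPM and *Ccnd2* at 46.2 and 198 CPM and 1103, 704 and 1288 CPM. Of the inhibitors and pocket proteins, 8 of 12 were higher, among them *Cdkn1a*, *Cdkn1b*, *Cdkn2c*, *Rb1* and *Rbl2*. *Cdkn2c* was at 1.58 and 2.05 CPM in ESCs and 71.9, 81.97 and 70.2 CPM in NPCs. *Trp53* was lower, at 331 and 354 CPM and 59.3, 85.005 and 68.7 CPM. Among MYC genes, *Mycn* was lower by 5.27 on the log2 scale (SE 0.56) and *Myc* higher by 1.41 (SE 0.31). *Myc* was not called without ESC replicate 1 (log2 fold change 0.99, adjusted p = 0.00437).

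Metabolic genes differed by pathway. Of the lipid list, 13 of 17 members were higher in NPCs and none lower. *Scd2*, a desaturase of stearoyl-CoA, was at 669.9 and 725 CPM in ESCs and 11056, 5211 and 9622 CPM in NPCs, and *Hmgcs1*, of cholesterol synthesis, at 461 and 479 CPM and 3757, 1700.5 and 3370.4 CPM. NPC replicate 2 was the lowest NPC sample for 14 of the 17 members, and also for 17 of the 23 members of the glycolysis list. The share of all genes for which it was lowest was not counted, here as for the other lists. Of the serine, glycine and threonine list, 9 of 14 members were lower. *Tdh*, threonine dehydrogenase, on which mouse ESCs depend, was at 214 and 274 CPM in ESCs and had 3 counts in NPCs, a ratio of 3322-fold (95% exact Poisson interval of the count, 1137 to 16109). *Mthfd2*, a folate enzyme of mitochondria, was at 228 and 172 CPM and 28.6, 26.9 and 21.6 CPM. *Phgdh*, the first enzyme of serine synthesis, was not called, with a log2 fold change of -0.28 (SE 0.16). Of the glycolysis list, 4 members were higher and 3 lower of 23, against 52.2% called among all genes. The glucose transporter *Slc2a3* was lower, and so was hexokinase 2, with *Hk2* at 472 and 514 CPM in ESCs and 86.3, 47.9 and 116 CPM in NPCs. Hexokinase 1 was higher, with *Hk1* at 77.3 and 95.6 CPM and 277, 201 and 315 CPM, as was the aldolase of brain, *Aldoc*, at 44.8 and 34.998 CPM and 749.8, 910.3 and 714 CPM.

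Imprinted genes, which are expressed mainly from a single parental copy, were lower in 10 and higher in 5 of 23 members tested. These were 43.5% and 21.7%, against 26.0% and 26.2% of all genes, and the number lower was 6 without NPC replicate 1. With any other sample left out it ran from 7 to 9. The maternal noncoding RNAs *Meg3*, *Rian* and *Mirg*, made from a single cluster, were lower in NPCs, *Rian* at 289 and 313 CPM in ESCs and 7.90, 1.43 and 22.6 CPM in NPCs. *Nnat* was at 4.75 and 5.14 CPM in ESCs and 271, 138 and 299 CPM in NPCs, and *Phlda2* at 55.05 and 44.6 CPM with 1 count in NPCs. NPC replicate 2 was far below the other NPC samples for *Grb10*, at 29.7, 0.758 and 25.1 CPM, for *Cdkn1c*, at 104, 3.88 and 51.8 CPM, and for *Zdbf2*, at 2.32, 0.0842 and 2.43 CPM. *Igf2*, a growth factor, was higher in ESC replicate 2, at 26.4 and 166 CPM in ESCs. *Meg3* was not called without ESC replicate 1 (log2 fold change -3.36, adjusted p = 0.0590), ESC replicate 2 (log2 fold change -2.79, adjusted p = 0.0921) or NPC replicate 1 (log2 fold change -2.97, adjusted p = 0.104), and *Grb10* was not called without NPC replicate 1 (log2 fold change -4.74, adjusted p = 0.0527) or NPC replicate 3 (log2 fold change -4.53, adjusted p = 0.0631). Y-linked genes also differed between the NPC samples, *Ddx3y* at 23.9, 186 and 95.2 CPM and *Kdm5d* at 10.3, 96.4 and 53.1 CPM in replicates 1, 2 and 3, with *Kdm5d* not called without ESC replicate 1 (log2 fold change 4.54, adjusted p = 0.0710) or NPC replicate 2 (log2 fold change 4.61, adjusted p = 0.0572). *Xist*, the RNA that silences an X chromosome and lies opposite *Tsix* (reads of both cannot be told apart without strand), was at 0.508, 3.37 and 0.0656 CPM in NPCs and 12.1 and 40.7 CPM in ESCs, and was not called without ESC replicate 2 (log2 fold change -3.29, adjusted p = 0.107) or NPC replicate 1 (log2 fold change -3.98, adjusted p = 0.0881).

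ESC replicate 2 was high in genes of fibroblasts, the cell type of feeder layers. Which cells these reads came from was not tested. Each of the 20 genes of that list was higher in replicate 2 than in replicate 1, and the list summed to 289 and 5415 CPM in the ESC samples and to 323, 275 and 423 CPM in the NPC samples. The collagen genes *Col1a1* and *Col1a2* were at 67.5 and 1395 CPM and 49.5 and 1189.6 CPM in ESCs, and the crosslinking enzyme *Lox* was at 32.3 and 528 CPM. The defining genes *Lum* and *Dcn* were at 0.0834 and 2.35 CPM and 0 and 3.60 CPM, so ESC replicate 1 had 1 count of *Lum* and none of *Dcn*. By the rule for the 5 largest differences between the ESC samples, *Postn*, *Col3a1*, *Thbs2*, *Dnm3os* and *Ly6a* led in replicate 2, and *Gm15564*, *Mir6236*, *Lars2*, *Dmrt1* and *Gm26917* in replicate 1. *Dnm3os* and *Gm15564* are annotated as antisense RNAs, and in unstranded counts their reads cannot be told apart from those of the gene opposite. *Lars2* was at 681 and 66.5 CPM and *Dmrt1*, a factor of germ cells, at 27.3 and 8.44 CPM in ESC replicates 1 and 2. The 9 list members called lower in NPCs of 17 tested became 5 without ESC replicate 2, when 3 were called higher, 5 without any 1 of the NPC samples, and 15 of 20 tested without ESC replicate 1. *Postn*, *Col3a1* and *Dnm3os* were not called without ESC replicate 2 or without any 1 of the NPC samples, with adjusted p of 0.0736 to 0.105, 0.0644 to 0.0999 and 0.0694 to 0.158. Their log2 fold changes were -0.98, -1.28 and -1.19 without ESC replicate 2. Without an NPC sample they were -5.36 to -5.27, -5.46 to -4.98 and -5.83 to -5.39. Among the genes named here, the fitted fold of 38 called genes moved by more than 1.5 times without ESC replicate 2, and of 33 without ESC replicate 1. The log2 fold change of *Tnc* was 4.21 without ESC replicate 2 against 1.30 with it, that of *Nfix* 6.44 against 4.10, and that of *Sox9* 8.51 against 6.98. Without ESC replicate 2 the core pluripotency list had 15 of 16 members lower, the naive list 17 of 17, and the neural stem cell list 23 of 25 higher. The part that this difference between the ESC samples had in the results on other genes was not tested beyond these values.

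**Figure D5:**
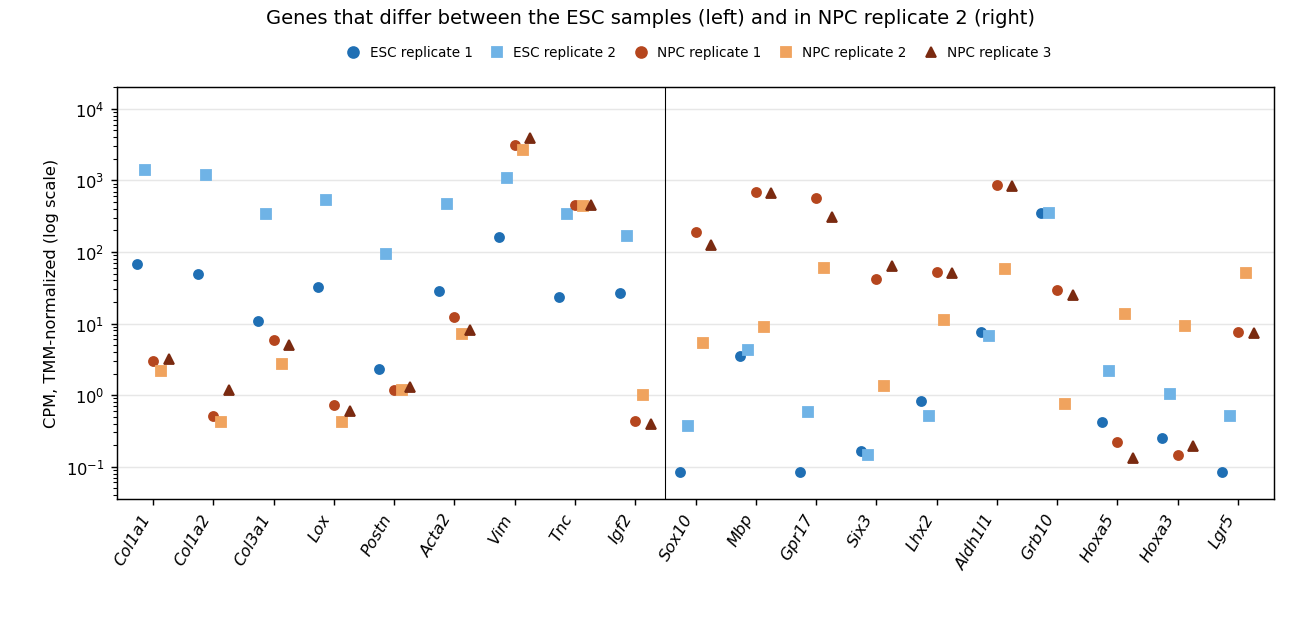
CPM on a log scale (y axis) in the 5 samples, 1 point per sample, for 9 genes that were higher in ESC replicate 2 than in replicate 1 (left of the line) and 10 genes for which NPC replicate 2 differed from replicates 1 and 3 (right). *Col1a1* lies at 67.5 and 1395 CPM in the ESC samples, and *Sox10* at 192, 5.39 and 124 CPM in the NPC samples.

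Other cell types were looked for by their markers. Of the microglia list, 1 of 10 members passed the filter, *Cd68*, which other cells also express, and the defining genes *Csf1r*, *Cx3cr1* and *Aif1* did not pass 0.734 CPM in any sample. Each of the 10 members was higher in ESC replicate 2 than in replicate 1, *Tmem119* most, at 0.5004 and 4.99 CPM. Of the list of endothelium and blood, 3 of 11 passed, *Pecam1*, *Tek* and *Flt1*, while *Cdh5* and *Cldn5* did not pass 0.587 CPM. *Flt1*, a VEGF receptor, was higher in NPCs, at 6.17 and 13.9 CPM in ESCs and 103, 60.8 and 185 CPM in NPCs. *Pecam1*, which ESCs also express, was at 121 and 90.7 CPM in ESCs and 0.290, 0.168 and 0.393 CPM in NPCs. The primitive endoderm factors *Gata4*, *Gata6* and *Sox17* were at 4.25 and 1.54 CPM, 2.34 and 2.27 CPM and 0.667 and 0.293 CPM in ESCs. The whole list of primitive endoderm, which includes matrix genes that other cells express, summed to 789 and 1509.5 CPM in ESCs and 955, 1392 and 1206 CPM in NPCs. Of its 10 members tested, 4 were lower in NPCs and 0 higher. The numbers were 3 and 3 without ESC replicate 2, and 2 and 0 without ESC replicate 1.

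The genes with the highest RPKM were partly shared. Among the 10 genes with the highest RPKM in each cell type, the mitochondrial genes *mt-Co1*, *mt-Nd1*, *mt-Cytb*, *mt-Nd2*, *mt-Nd6* and *mt-Nd5* were in both. In ESCs they were joined by *Hsp90ab1*, *Rpl4*, *Rpl8* and *Dppa5a*, and in NPCs by *Gm23935*, *Mir6236*, *Scd2* and *Fabp7*. Reads with more than 1 place in the genome were left out, so abundant genes with near-identical copies can be missing from these ranks. *Hsp90ab1*, a chaperone, was lower in NPCs by 1.56 on the log2 scale (SE 0.094), from 2064 ± 102 RPKM to 698 ± 15.5 RPKM. The annotated microRNA genes *Mir6236* and *Gm23935* were at 139 and 7.78 CPM and 17.9 and 0.734 CPM in the ESC samples, far apart, and at 154, 256 and 246 CPM and 72.7, 138 and 121 CPM in NPCs. They are annotated with 123 and 57 bases, so their RPKM ranks rest on division by a short length and do not show abundant messages. What their reads come from was not tested. *Gm23935* was not called without any 1 of the NPC samples, with log2 fold changes of 3.37 to 3.81 and adjusted p of 0.0710 to 0.120.

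The same contrast in the *Phf8* KO samples of both cell types, which share no sample with the WT comparison, was fitted in the same way. Of 15675 genes tested in both, 4123 were called higher in WT and 4055 in KO, and 3809 in each, which is 92.4% of the WT calls and 93.9% of the KO calls. For genes called lower the number in each was 3838, or 95.2% of 4032 and 91.9% of 4176. No gene was called in opposite directions.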

How the data were processed

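RNA of 5 WT samples (2 ESC, 3 NPC) was measured by mRNA sequencing. The deposited values are raw read counts per gene, which the authors made with CASAVA 1.7, STAR against mm10 and HTSeq with Ensembl genes, 1 table per sample and no pooling. The count did not use strand. Lines of HTSeq that name no gene stayed out of totals and tests. Of 39179 gene identifiers, 37693 (99.721% of the counts) matched the GENCODE M21 annotation of GRCm38, which gave symbols, places and exon lengths. CPM (after TMM scaling) and RPKM were computed from the counts.

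Genes that passed edgeR's filterByExpr were tested with edgeR 4.0.16 (R 4.3.3, robust quasi-likelihood test), NPC minus ESC, and called at a Benjamini-Hochberg adjusted p under 0.05 and a log2 fold change beyond 1. The biological coefficient of variation was 25.2%. A group with no count is given a bound from 3 counts over the group, and a group with 1 to 3 counts a ratio with its 95% exact Poisson interval. Both cover counting error only. On simulated counts for this comparison (15436 genes, trended spread), 94% of genes changed by 1.5 and 100% of genes changed by 2 on the log2 scale were called, and 3.48% of the calls were of unchanged genes. With gene-wise spread (15445 genes) the shares were 92% and 95%, and 8.78% of the calls were of unchanged genes. In both runs only 100 genes were changed by each amount, all at or above the median level, whereas 52.2% of genes were called in the data. The simulated shares therefore do not carry over to genes with few counts, or to the share of false calls in the data.

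The genes named are members of gene lists, the 10 with the smallest adjusted p-values and the 10 with the largest fold change in each direction (at least 5 RPKM in the higher group), the 10 with the highest RPKM in each cell type, and the 5 with the largest difference each way between the ESC samples (at least 10 CPM). A few list members count in the totals but are not reported here by name. Single genes were picked from the lists after their values were seen, and members and lists were chosen with earlier results of these data known. The alternatives were DESeq2 1.42.0, edgeR's exact test, other scalings, filters and thresholds, the KO samples alone or added, each sample left out, and the replicate number as a block.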

Additional observations from a re-analysis of the deposited data

How the results depend on the processing

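The number of genes called kept within 1.5 times its value under each alternative run. It was 4081 higher and 4187 lower with DESeq2, 4296 higher and 4236 lower with edgeR's exact test, 4055 higher and 4277 lower with library totals, 4290 higher and 4620 lower with no filter on low counts, 3270 higher and 2886 lower with a mean count of at least 50, 5511 higher and 5836 lower with no fold threshold and 3148 higher and 3197 lower when tested against the fold threshold itself. With each sample left out in turn, the counts ran from 3671 to 4133 higher and from 3853 to 4218 lower, and calls among the gene lists from 341 to 373 (376 with all samples). Where an ESC sample is left out, the lone ESC sample is assumed to vary like the NPC samples. Leaving out replicate 2 of both cell types, chosen after seeing the data, gave 4492 higher and 4137 lower. Of the 8321 calls, none was called in the opposite direction in any alternative, and 1 of 8155 tested in the *Phf8* KO samples changed sign there.

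The replicate numbers are shared by ESC and NPC samples, and the labels do not say whether equal numbers mark a shared batch. The deviations of samples with the same number correlated by 0.013 and -0.029 across genes. With 2 ESC samples, the deviations of one mirror those of the other, so these values cannot tell whether the samples were paired. With the replicate block, 3578 higher and 3561 lower were called, 6999 of them among the 8321. Of 263 genes named, 14 lost the call under the block, 19 with no filter and 10 against the fold threshold.

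The genes named whose sign turned under an alternative were not called in the full comparison. With samples left out singly, or replicates 2 together, the log2 fold change ran from -1.49 to 0.20 for *Bmp4*, -0.26 to 1.11 for *Ddx3y*, -0.86 to 2.58 for *En1*, -0.093 to 4.24 for *Gm15564*, -0.013 to 0.86 for *Hes1*, -0.041 to 3.36 for *Lars2*, -0.37 to 0.26 for *Mki67*, -0.084 to 0.038 for *Smarca4*, -0.052 to 0.077 for *Sox2*, -3.99 to 1.59 for *Thbs2* and -0.083 to 0.28 for *mt-Nd1*. In the *Phf8* KO samples, the log2 fold change was 0.57 for *Bmp4*, -0.82 for *En1*, -0.15 for *Gm15564*, -0.041 for *Hes1* and -0.058 for *Lars2*. With the replicate block, the log2 fold change was -0.068 for *Prom1* and -0.040 for *Sox2*. With no filter on low counts, the log2 fold change was 0.0036 for *Smarca4*. With DESeq2, the log2 fold change was -0.017 for *Sox2*. With RLE size factors, the log2 fold change was -0.017 for *Sox2*. With library totals, the log2 fold change was -0.019 for *Sox2*. With a mean count of at least 50, the log2 fold change was -0.015 for *Sox2*. The causes of these turns were not tested. Without replicates 2 of both cell types *Thbs2* passed as higher in NPCs. With 2 and 3 samples a group, genes with few counts and genes that differ between samples of 1 cell type are measured least precisely.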

Other observations

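Genes called higher in NPCs were longer in the genome than those called lower. The median span from first to last annotated base was 30.5 kb for protein-coding genes called higher, 22.1 kb for those called lower and 24.4 kb for those not called. Spans over 100 kb were found for 23.6% of the first, 10.1% of the second and 12.5% of the third. These values describe the called genes, and no test was made of them.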
